A study of Mus musculus with 2 samples.

Results

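Immediate early genes are transcribed within minutes of a stimulus, without new protein synthesis. The Fos and Jun proteins pair to form AP-1, a transcription factor that binds TGANTCA sites, and the EGR proteins are zinc finger factors that bind GC-rich sites. They are fed by MAP kinases, which act on serum response factor with its ELK partners and on CREB, and they are switched off by phosphatases and RNA-decay proteins that the same signals induce. In blood stem and progenitor cells, AP-1 and EGR factors are known for roles in stress responses, quiescence and myeloid differentiation. They are also known to be induced when tissue is dissociated and cells are sorted.

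The transcripts examined were Fos, Fosb, Jun, Junb, Jund, Egr1, Egr2, Egr3, Ier2 and Atf3, taken as every non-control probe whose transcript accession mapped to one of these symbols. All 10 genes were on the array, each with 1 probe, which made 10 of 28319 probes with a gene name and 10 of 21360 named genes. The Fos probe was printed in 10 spots and each of the others in 1 spot, 19 of 31845 named spots. The study compared LSK cells, the Lineage-, Sca-1+, c-kit+ fraction of the bone marrow that holds blood stem and multipotent progenitor cells, between nondiabetic mice and mice made diabetic with STZ. STZ (streptozotocin) is an alkylating sugar that kills the insulin-producing cells of the islets. Both groups were female C57BL/6J mice per the labels, with no transgene named and no age given, and the study's text speaks of male mice. Each group was 1 array, hybridised with amplified Cy3-labelled cDNA from 8.3 ng of total RNA of 3 mice.

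With 1 array per condition there was no biological replicate, so no difference between the conditions was tested and no p-value is given. The spread between spots that carry the same probe on both arrays gave the only error of the ratios. It covers differences between places on an array. The amplification, labelling, hybridisation and scan that all spots of an array share are not covered, nor are the mice. Over 237 probes printed at least 5 times, the spot-to-spot SD of the log2 ratio had a median of 0.13. Intensities are the scanner software's background-corrected values in array units, and log2 ratios are diabetic over nondiabetic after each array was divided by its 75th percentile of intensity (168 for nondiabetic and 182 for diabetic cells). That scaling lowers every log2 ratio by 0.12 compared with the unscaled intensities. A probe was taken as detected where the software flagged it well above background, which held for 62.7% and 63.9% of the non-control spots. In bulk RNA, fewer cells of a type and less RNA per cell cannot be told apart.

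The labelled cell fraction was checked against its markers. Of 10 LSK and early progenitor genes, 9 were detected in nondiabetic and 10 in diabetic cells. The log2 ratio of Kit, the c-kit receptor of the gate, was -0.09 (4635 against 4735). That of Ly6a, which encodes Sca-1, was 0.44 (475 against 701). Over the 10 genes the median was 0.24, with 2 below 0 (Kit, and Ptprc at -0.97). Slamf1, not detected in nondiabetic cells (5.29 against 28.7), had a bound of 1.37. Genes of other cells were also measured. On both arrays 8 of 8 monocyte and macrophage genes were detected, with summed intensities of 40396 and 39910 that Itgam dominated (34686 and 35189). This brightest Itgam probe was at -0.10, while its other probes were at -1.12 and -1.30. The median log2 ratio of the list was -0.40, with 6 of 8 below 0. Cd68 was at -1.28, and the genes above 0 were Cx3cr1 at 1.34 and Adgre1 at 0.94. Of erythroid genes, the alpha globin gene Hba-a1 read 1984 and 4967, a log2 ratio of 1.21. The log2 ratio of Slc4a1, the band 3 anion exchanger of red cells, was 1.98. Over 5 erythroid genes with a value the median was 0.75, with 2 below 0 (Klf1 at -0.30 and Epor at -0.20). Summed intensities of stromal and endothelial genes were 238 and 1023, with 4 of 7 detected on each array and Cdh5 and Col1a1 on neither. Most of that sum was Pecam1 (162 and 936), while 2 of the 4 genes with a value were below 0 and the list's median was 0.20. The median was 0.62 over 5 B cell genes with a value and 0.35 over 5 megakaryocyte genes. Cd79a was at 1.51 and Gp9 at 1.52, while Cd79b at -0.39 and Vwf at -0.12 were alone below 0 in their lists. Neutrophil genes had a median of -0.25, with 3 of 6 below 0, S100a8 at -1.48 and Camp at 0.56. For T and NK cell genes the median was -0.07, with 4 of 5 below 0. The part of these cells in the values of the immediate early genes was not tested.

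Ier2 stood far below the other genes in the comparison of the arrays. Of the 10 immediate early genes, 0 were at least 2-fold higher in the diabetic LSK cells, beside 11% of the 15192 named genes with a ratio or bound. Of the same 10, Ier2 alone was lower by 2-fold or more (1 of 10), beside 10.1% of all genes. The other 9 lay within 2-fold in either direction, as did 78.9% of all genes. Log2 ratios were above 0 for 6 genes and below 0 for 4, beside 51.2% of all genes above 0. The median of the 10 genes was 0.17 (all genes: 0.02). Of the 6 above 0, 2 were bounds, and the median was -0.14 over the 8 genes well above background on both arrays and 0.00071 with the normexp correction. The members were thus spread on both sides of 0 like the genes at large, and no shared direction was seen among them.

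The brightness of different probes does not rank their transcripts, so each gene was compared only with itself. Egr3 and Atf3 were not well above background in the nondiabetic cells, so 8 of the 10 genes were detected there and 10 of 10 in the diabetic cells. Junb, Egr2, Egr3 and Atf3 lay close to background on both arrays, and Ier2 did so in the diabetic cells only. No spot was saturated.

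**Figure D1:**
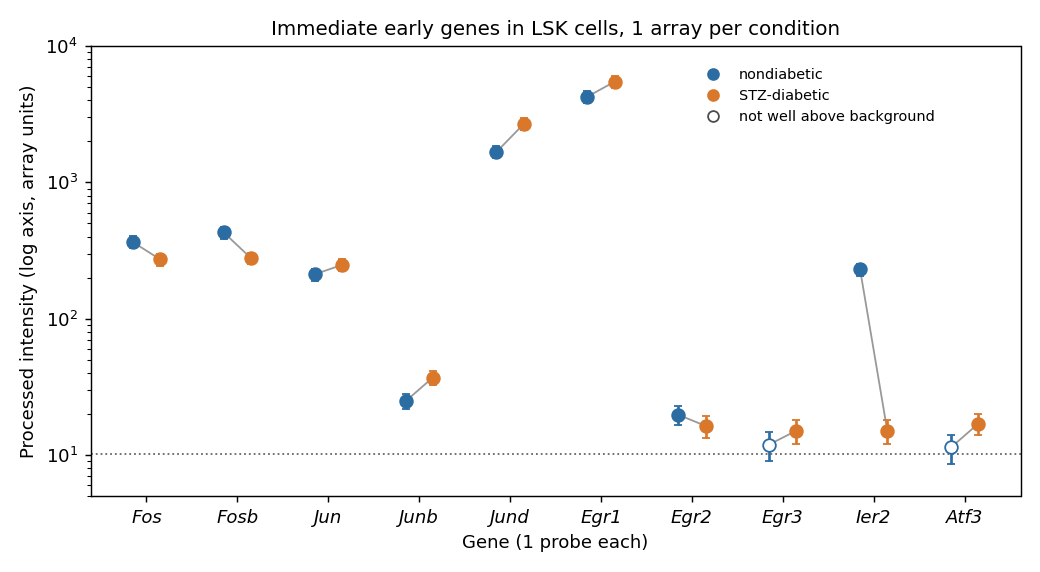
Processed intensity (array units, log axis) of the 1 probe of each gene on the nondiabetic and the STZ-diabetic array, with bars for the scanner software's error of each value and a dotted line at the lowest intensity well above background. Ier2 drops from 230 to 15.1, while the other 9 genes stay within 2-fold, and the open points of Egr3 and Atf3 mark values not well above background.

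Both Fos and Fosb had lower signals in the diabetic LSK cells. Fos encodes the c-Fos subunit of AP-1, and its probe (A_52_P262219, transcript NM_010234) was read 10 times per array. The spots ran from 343 to 382 with a median of 372 in nondiabetic cells, and from 250 to 295 with a median of 270 in diabetic cells. The ranges of the unscaled intensities did not overlap, with means of 365 ± 16.8 and 273 ± 14.3 (SD, n = 10 spots of 1 array each). The log2 ratio was -0.54 ± 0.11 (SD over the 10 spots, range -0.64 to -0.33), which is 1.45-fold lower. The difference was therefore larger than the spread between spots of this probe, and all 10 spots had it in the same direction. About 20.4% of all genes had a ratio as low as or lower than that of Fos, so its place among all genes was not extreme.

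**Figure D2:**
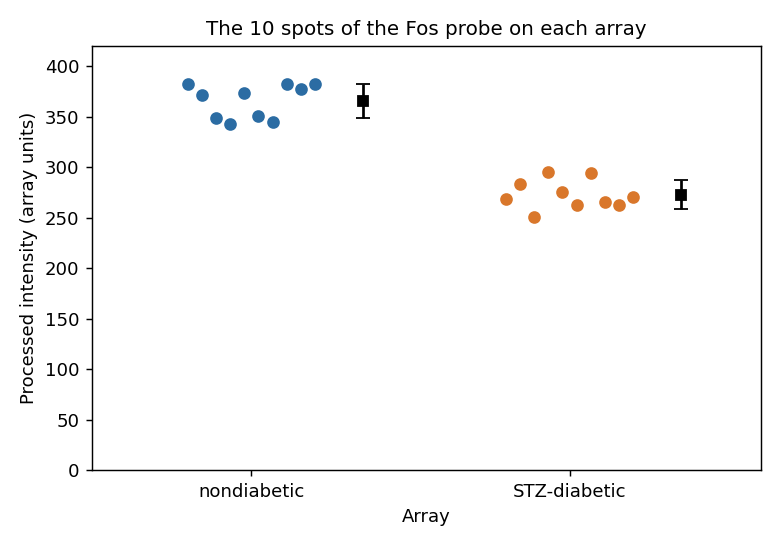
Processed intensity (array units) of the 10 spots of the Fos probe on each array, with squares and bars for the mean and SD over the spots. The nondiabetic spots lie at 343 to 382 and the diabetic spots at 250 to 295, without overlap, and spots of 1 array are repeated readings of 1 RNA sample.

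Fosb encodes a close relative of c-Fos that also pairs with Jun proteins. Its probe (A_55_P2113051, NM_008036) read 429 in nondiabetic and 278 in diabetic cells. The log2 ratio was -0.74, which is 1.67-fold lower, where probes of like intensity varied between spots with a median SD of 0.080. The difference exceeded that spread, and 14.8% of all genes were as low or lower. Fos and Fosb were the members with the lowest ratios after Ier2.

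The 3 JUN family genes, whose products are the partners of Fos proteins in AP-1, had ratios above 0. Jund encodes the member that is typically made constitutively in resting cells, and its probe (A_51_P357744, NM_010592) read 1670 in nondiabetic and 2677 in diabetic cells. The log2 ratio of Jund was 0.56, which is 1.48-fold higher, beside a spot SD of 0.051 for probes of like intensity. Jun, the gene of c-Jun, read 212 and 248 (A_55_P2158990, NM_010591), and its log2 ratio of 0.11 was about as large as the spot SD of 0.10. Junb, whose product restrains the growth of myeloid progenitors, was dim at 24.8 and 37.1 (A_55_P2011106, NM_008416), with a log2 ratio of 0.46 and a spot SD of 0.26. Only for Jund did the difference stand clear of that spread by several times among these 3 genes, and 78.4% of all genes had a ratio at or below that of Jund.

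Among the EGR genes, only Egr1 was bright. Egr1 encodes a zinc finger factor known to hold blood stem cells quiescent, and its probe (A_51_P367866, NM_007913) read 4246 in nondiabetic and 5469 in diabetic cells. The log2 ratio was 0.25, which is 1.19-fold higher. It was larger than the spot SD of 0.046, which rested on only 4 repeated probes of like intensity. Egr2, known for its role in lymphoid and macrophage development, was near background with 19.8 and 16.4 (A_55_P2033362, NM_010118), and its log2 ratio of -0.39 was close to the spot SD of 0.32. Egr3, a related factor best studied in lymphocytes, read 12.0, not well above background, and 15.1 (A_55_P2032412, NM_001289925). Against the undetected nondiabetic value it was 1.16-fold higher in the diabetic cells, which is not a minimum. At this signal over background, the values of Egr2 and Egr3 were not clearly separated between the arrays.

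Atf3 encodes a stress-induced factor that can pair with Jun proteins and often represses transcription. Its probe (A_52_P452689, NM_007498) read 11.4, not well above background, in nondiabetic cells and 17.0 in diabetic cells. Against that undetected value it was 1.38-fold higher, a log2 value of 0.46 beside a spot SD of 0.33, and 0.00071 with normexp. This ratio is neither a minimum nor the size of the difference, because the nondiabetic signal was not separated from background.

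Ier2 encodes a small nuclear protein that is induced with Fos and Jun by growth factors. Its single probe (A_55_P2163028, NM_010499) read 230 in nondiabetic and 15.1 in diabetic cells, with software errors of 23.2 and 2.91. The log2 ratio was -4.05, which is 16.6-fold lower. The spot SD of 0.18 belongs to probes near the mean log2 intensity of the 2 arrays, which is like neither value. For Egr2, near background on both arrays, the spot SD was 0.32. The median pixel intensity of the spot before background correction was 258.5 in nondiabetic and 54 in diabetic cells. Only 20 of 15192 genes (0.132%), Ier2 included, had a ratio that low. The diabetic value was 1.5 times the lowest intensity well above background on that array, so the fold depends on how the background is taken off: with the normexp correction in place of the software's, Ier2 was 3.88-fold lower. The other alternatives that could move its value, quantile, median and loess normalization, gave 16.2-fold to 16.7-fold lower. The remaining 6 could not change a gene read by 1 spot that was detected on both arrays.

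No second probe on the array was named as Ier2, so the spot's surroundings and other genes with such low ratios were examined. Within 2 rows and 2 columns, 19 spots were measured and 11 were well above background on both arrays. Their log2 ratios had a median of 0.76 and ran from -0.92 to 3.10, so none of these 11 was as low as Ier2. The 8 neighbours that were not above background on both arrays gave no ratio. Of 96 genes whose brightest probe was at least 3 log2 units lower in the diabetic cells, 19 had a further probe with a ratio. That further probe was at least 2-fold lower for 6 of the 19 (31.6%) and below 0 for 12 (63.2%). Of all genes by their brightest probe, 10.1% were at least 2-fold lower and 51.2% were above 0. The further probes were often less low, but the first probes had been picked for their low ratios. No such comparison could be made for Ier2.

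**Figure D3:**
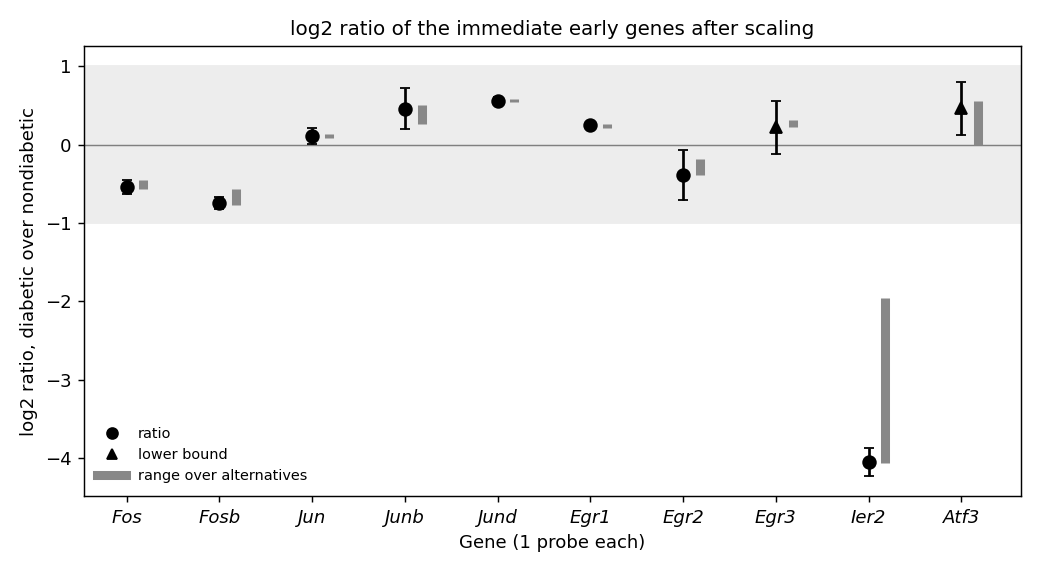
Log2 ratio of diabetic over nondiabetic LSK cells for each gene. Triangles, labelled lower bound, are Egr3 and Atf3, which were well above background on 1 array only and are given as the plain ratio. Bars show the median spot-to-spot SD of probes of like mean log2 intensity over both arrays. Grey bars show the range over the alternative settings, and shading differences within 2-fold. Ier2 lies at -4.05 with alternatives from -4.06 to -1.96, and the other 9 genes lie between -0.74 and 0.56.

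The sequences before the transcript starts are shown for Fos and Fosb, which were lower, and for Junb and Jund, which had ratios above 0. They are shown because several FOS and JUN family genes are known to be controlled through CREB and serum response factor sites. RefSeq promoter sequences (GRCm38.p6) were matched for 7 of the 10 genes by symbol, and Egr1, Egr3 and Ier2 are named only. Each line gives the 250 bases before the start in the direction of transcription, and capitals mark the CRE core (CGTCA or its complement, which CREB and ATF proteins bind within the full site TGACGTCA), the EGR site GCGNGGGCG and the TATA motif TATAAA.
Fos (GRCm38.p6 chr12:85473640-85473889, plus strand): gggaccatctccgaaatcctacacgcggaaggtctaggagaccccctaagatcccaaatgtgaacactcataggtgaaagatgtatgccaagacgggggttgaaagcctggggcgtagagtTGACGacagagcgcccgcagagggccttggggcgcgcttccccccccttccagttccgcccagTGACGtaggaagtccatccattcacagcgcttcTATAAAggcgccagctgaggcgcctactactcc
Fosb (GRCm38.p6 chr7:19310046-19310295, minus strand): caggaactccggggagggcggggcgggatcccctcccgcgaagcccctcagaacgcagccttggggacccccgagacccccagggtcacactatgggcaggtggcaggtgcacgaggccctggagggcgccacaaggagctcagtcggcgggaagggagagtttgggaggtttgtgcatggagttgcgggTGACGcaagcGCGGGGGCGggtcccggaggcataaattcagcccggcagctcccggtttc
Junb (GRCm38.p6 chr8:84978749-84978998, minus strand): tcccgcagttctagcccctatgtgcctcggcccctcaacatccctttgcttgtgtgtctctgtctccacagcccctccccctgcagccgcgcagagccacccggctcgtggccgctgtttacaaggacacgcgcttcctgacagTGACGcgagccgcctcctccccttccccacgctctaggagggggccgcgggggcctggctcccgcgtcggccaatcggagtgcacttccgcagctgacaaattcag
Jund (GRCm38.p6 chr8:70697489-70697738, plus strand): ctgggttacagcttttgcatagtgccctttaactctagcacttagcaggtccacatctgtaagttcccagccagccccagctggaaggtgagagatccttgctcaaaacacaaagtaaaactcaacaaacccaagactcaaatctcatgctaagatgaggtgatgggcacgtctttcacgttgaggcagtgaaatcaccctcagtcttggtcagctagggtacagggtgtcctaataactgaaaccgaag

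Matches to these letters were counted on both strands of the 250 bases, without a claim that any of them is used. The Fos promoter held a CRE core at 129 to 125 and at 66 to 62 bases before the start, and a TATA motif at 33 to 28 bases. Fosb held a CRE core at 60 to 56 bases and an EGR site at 50 to 42 bases that overlaps a GC box (GGGCGG). Junb held a CRE core at 106 to 102 bases, and Atf3 one at 7 to 3 bases. CRE cores were also matched before 3 of the 5 starts of Egr2 and were not matched before Jun. The windows of these 3 starts overlap and hold the same CRE cores. A CRE core thus stood before 3 genes with ratios below 0 (Fos, Fosb and Egr2) and before 2 of the 4 with values above 0. No match to any of the 8 motifs was found before the Jund start, a window with a GC content of 47.6% beside 58.4% for Fos and 68.8% for Fosb. The Jun window held a GC box and a CCAAT motif. A CArG box, the site of serum response factor, was matched before 4 of the 5 starts of Egr2, in 3 of them as the same site. None was matched before the other genes, where sites farther than 250 bases before the start were not searched.

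Matches to these letters are also found in promoters at large, in shares from 1.48% to 33.8%. Of 32536 RefSeq promoters of the same length, 17.9% held the CRE core, 1.56% the full CRE, 6.73% an AP-1 site (TGANTCA), 4.74% the EGR site, 1.48% a CArG box, 33.0% a GC box, 12.3% the TATA motif and 33.8% CCAAT. The full CRE lies over the CRE core, so their shares overlap. With 7 genes, nothing is drawn from how the motifs fall among them.

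**Figure D4:**
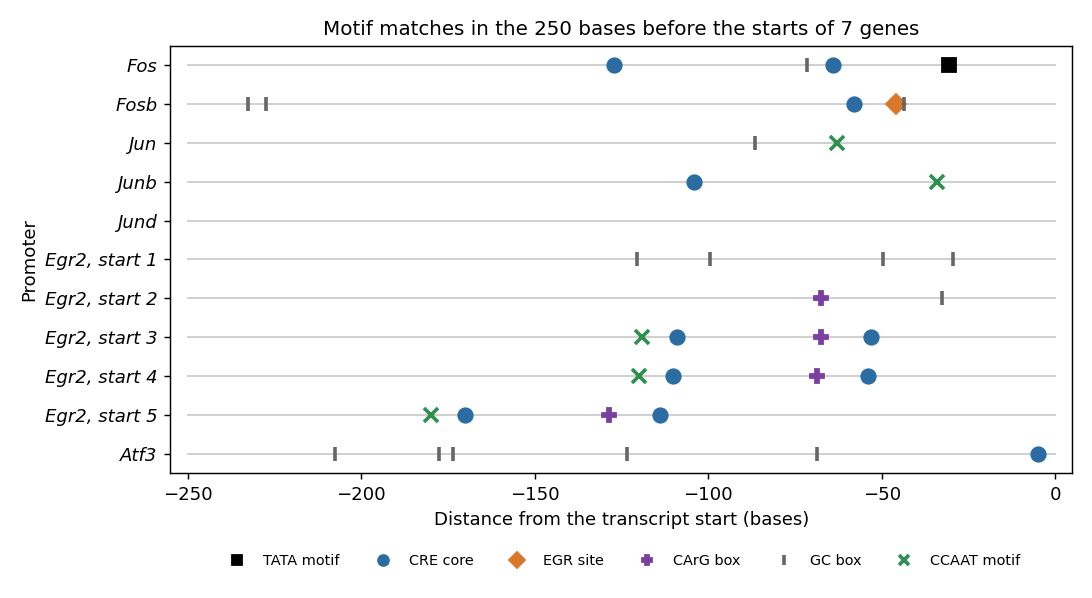
Motif matches by distance from the transcript start (bases) in the 250 bases before the starts of the 7 genes with a RefSeq promoter, with a line for each of the starts of Egr2. CRE cores are seen for Fos, Fosb, Junb, Egr2 and Atf3, a TATA motif for Fos alone, and no match for Jund.

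To place the members in their pathway, 6 lists with 145 genes were set beside the immediate early genes, each gene by its brightest probe. Of the 145 genes, 143 were on the array and 120 had a ratio or bound. In the diabetic cells 9 of these (7.5%) were higher by 2-fold or more and 16 (13.3%) lower. The shares of all genes were 11% and 10.1%. With the normexp background correction, whose offset of 50 pulls the ratios of dim probes towards 0, the counts were 1 and 5, and those of all genes were 597 and 497. With median centring 12 genes were higher, since Mafk, Mapk3 and Dusp10 then passed 2-fold.

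The relatives of the AP-1, ATF and EGR factors numbered 24, of which 19 had a value. Past 2-fold, 1 gene was higher and 5 were lower, and the median log2 ratio was -0.08 (-0.53 with the mean over probes). The endoplasmic reticulum stress factor gene Atf6b had a log2 ratio of -2.28 (304 against 67.7), and Ier3, a survival gene induced with the immediate early genes, one of -1.81 (212 against 65.6). Jdp2, whose product dimerises with Jun and represses AP-1, was at -1.23 (226 against 104), and Batf, a leucine zipper partner of Jun in lymphocytes, at -1.02 (170 against 90.8). The bound for Maf, a large leucine zipper factor, was 2.29-fold lower (21.2 against 7.71), and that for Batf2 5.17-fold higher (2.90 against 57.3). With normexp Maf was at -0.37 and Batf2 at 0.70, and the list had 0 genes higher and 2 lower past 2-fold. Fosl2, the FOS family gene of Fra-2, was at 0.49 by its brighter probe (670 against 1020) and at -0.18 by its other probe.

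The upstream kinases and factors had a median of 0.26 over 34 of 35 genes, with 4 higher and 3 lower past 2-fold. The 4 that were higher are kinases of MAP kinase cascades, which make up most of the list. They were Map2k7, which activates JNK, at 1.47 (23.3 against 70.0), Map2k3 at 1.15 (28.5 against 68.6) and Map2k6 at 1.01 (346 against 756), which activate p38, and Mapk7, the kinase ERK5, at 1.07 (94.9 against 217). Map2k6 came to 0.98 at the lowest of the scaling alternatives, and with normexp none of the 4 was past 2-fold (0.56 to 0.90). Srf, the serum response factor gene, was near 0 at -0.04 (1619 against 1711) and at -0.13 by its other probe. Mrtfa, a coactivator of serum response factor, was at -2.0 by its brightest probe (264 against 71.6) and at 0.91 by the other, so its probes disagreed in sign. Map2k4, another activator of JNK, was at -1.13 (304 against 150) and at 0.54 by another probe. The bound for Mapk11, a p38 kinase, was 2.36-fold lower (21.8 against 8.20), and with normexp the gene was at -0.15.

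Other immediate early genes, which respond to the same signals as Fos and Egr1, lay mostly within 2-fold. Of 33 with a value among 38, 1 was higher and 3 were lower past 2-fold, with a median of 0.12. The orphan nuclear receptor gene Nr4a2 was at -2.53 (131 against 24.7) and at -1.05 by its other probe, and both its probes were past 2-fold. Gadd45g, a growth arrest gene, was at -1.38 (193 against 80.4), and Socs3, an inhibitor of JAK signalling, at -1.23 (68.1 against 31.4). Plk2, a polo-like kinase gene, was at 1.34 (72.3 against 199). Nr4a1, a receptor of the same family as Nr4a2, was at -0.35 (96.1 against 82.0), Klf6 at 0.07 (341 against 388) and Myc at -0.47 (1412 against 1106). No shared direction was seen in this list either.

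The feedback inhibitors that end MAP kinase signals and degrade immediate early transcripts had a median of 0.20 over 15 of 18 genes. Dusp1, the phosphatase induced with Fos, was at -0.25 (1784 against 1633), and Zfp36, which targets such transcripts for decay, at 0.25 (1618 against 2082). The bound for Dusp4, a nuclear phosphatase of ERK, was 5.79-fold higher (10 against 64.1), but the gene was at 0.64 with normexp. Dusp7, a cytoplasmic phosphatase of ERK, was at 1.66 (143 against 489). Sik1, a kinase that restrains CREB coactivators, was at -1.28 (727 against 324). Past 2-fold, 2 genes of the list were higher and 1 was lower.

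Heat shock genes, which respond to stress and to handling, gave 0 of 9 genes past 2-fold in either direction, with a median of 0.02 and a range from -0.95 to 0.82. Hspa1a, the inducible HSP70 gene, was detected on neither array (7.08 and 9.89). Among 18 genes known as targets of AP-1 or EGR factors, 10 had a value, with a median of -0.45, and 8 were well above background on neither array. Ccnd1, the cyclin D1 gene, was at -1.53 (144 against 54.0), and Thbs1, the matrix protein thrombospondin 1, at -1.33 (189 against 81.8). The bound was 2.98-fold lower for the adhesion molecule gene Icam1 (27.6 against 5.85) and 2.75-fold lower for the collagenase gene Mmp13 (25.5 against 2.34). With normexp Icam1 was at -0.38 and Mmp13 at -0.24. Plaur, the urokinase receptor gene, was 3.45-fold higher against its undetected nondiabetic value (10.6 against 39.8). Past 2-fold, 4 of the 10 genes were lower and 1 was higher, and under the normexp correction none was.

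**Figure D5:**
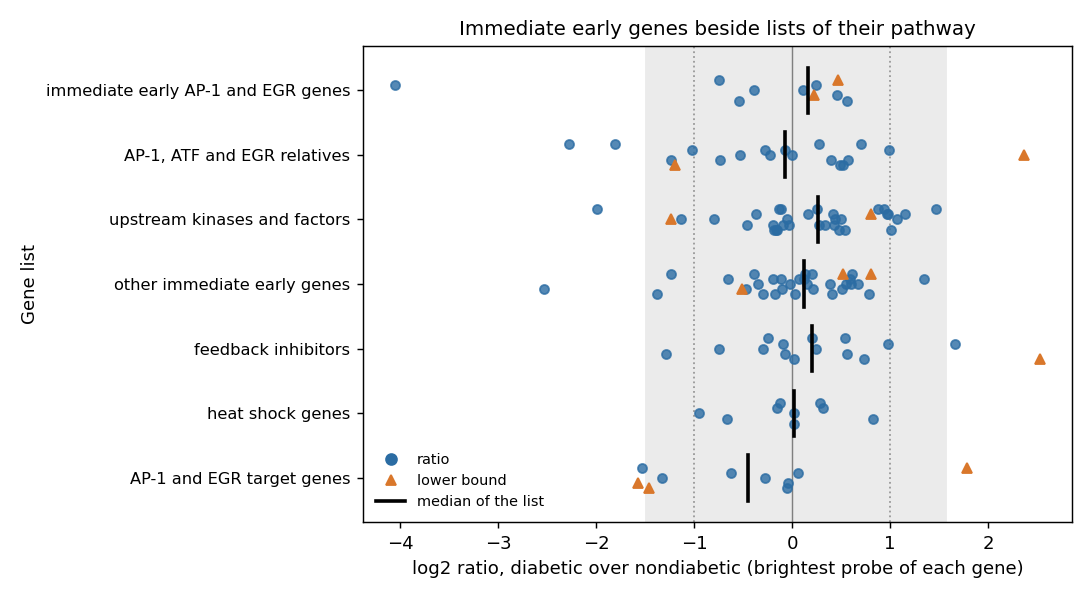
Log2 ratio of diabetic over nondiabetic LSK cells for the immediate early genes and for 6 lists of their pathway, 1 point per gene. Triangles, labelled lower bound, are genes well above background on 1 array only, and a black line marks each list's median. Dotted lines mark 2-fold and shading the range from the 5th to the 95th percentile of all genes (-1.50 to 1.58). Of the immediate early genes Ier2 alone lies outside the shading, and the list medians run from -0.45 to 0.26.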

How the data were processed

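Total RNA of sorted LSK cells was amplified, labelled with Cy3 and hybridised to 1 Agilent 1-colour array per condition. The authors deposited the scanner output of Agilent Feature Extraction 11.5.1.1 (array grid on mm9), with a processed intensity, median pixel intensities and 0 or 1 flags per spot. The deposited table of processed values is that intensity times 1 constant per array (11.1 and 10.2). Control spots and spots flagged as outliers (192 and 147) were left out here, spots of a probe were averaged on the log2 scale, and each array was scaled to its 75th percentile. Probes were named through their transcript accession in RefSeq tables (GRCm38.p6), which gave a name to 53.7% of 59305 spots. A gene was read by its brightest probe. A probe above background on 1 array only was given as a bound. It was taken against the lowest intensity well above background on the other array or the probe's own value there, whichever was higher. Such a bound depends on the software's background correction and is not a minimum under normexp. Past 2-fold is a description, since 1 array per condition allows no test, and the number of arrays limits the precision.

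The members and gene lists were chosen with earlier results of these data known. Named genes were all members, a few fixed relatives, and per list the 5 genes farthest past 2-fold in each direction. Alternatives were normexp (limma 3.58.1, R 4.3.3, offset 50, on median signals), quantile, median and loess (span 0.3) normalization, other filters, the mean over probes, the deposited table and outliers kept. Other computations used Python 3.11.15 with numpy 2.4.6 and pandas 2.3.3, and they were tested on simulated data.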

Additional observations from a re-analysis of the deposited data

How the results depend on the processing

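No member's log2 ratio changed sign under the alternatives run (10 for most genes, 9 for Atf3 and 8 for Egr3), and the counts past 2-fold stayed at 0 higher and 1 lower. Only normexp and quantile, median and loess normalization moved any member's value. The other alternatives returned the main value wherever they gave one, so they were no check of a sign or of these counts. The median log2 ratio of the members, 0.17 as reported, was 0.00071 with the normexp correction, where Egr3 had no value, and -0.14 over the 8 genes well above background on both arrays, where the bounds of Egr3 and Atf3 drop out. Atf3 ran from 0.00071 with normexp to 0.56, and Ier2 from -4.06 to -1.96, the latter with normexp. The other genes moved less: Fos from -0.57 to -0.46, Fosb from -0.77 to -0.56, Junb from 0.26 to 0.50 and Egr2 from -0.39 to -0.18. Without the detection filter the median of all genes shifted by -0.11, and with a floor by -0.16. No paired analysis was possible because there was 1 array per condition, and for the same reason no replicate could be left out. Signal over background limits Egr2, Egr3, Junb, Atf3 and the diabetic value of Ier2.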
